A study of Mus musculus with 4 samples.

Results

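Lmna, Lmnb1, Lmnb2, Lbr, Hmgb1, Hmgb2 and Hmgb3 were followed through single-cell RNA-seq of mouse kidney glomeruli. These 7 genes of the nuclear lamina and the HMGB family were taken by gene symbol from 52636 gene IDs, and each symbol matched 1 ID. The series holds 2 libraries labelled young and 2 labelled aged, with no treatment. Glomeruli were collected with magnetic beads carried in by perfusion through the heart and were then digested to single cells. The labels give neither the age in months nor strain, sex or number of mice, so p-values below measure the spread between libraries, which may be technical. The labels name no sort for a cell type in any of the 4 libraries.

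The nuclear lamina is a protein mesh under the inner nuclear membrane. Lmna encodes lamins A and C, which stiffen the nucleus and are abundant in cells under mechanical load, while Lmnb1 and Lmnb2 encode the B-type lamins that stay attached to the membrane. Lbr encodes the lamin B receptor, a membrane protein that tethers heterochromatin to the lamina and also carries sterol reductase activity. Hmgb1, Hmgb2 and Hmgb3 encode chromatin proteins that bend DNA, and HMGB1 released from cells acts as an alarm signal through the receptors RAGE and TLR4. Loss of lamin B1 and of HMGB2, and movement of HMGB1 out of the nucleus, are widely used marks of senescent cells in culture. In the glomerulus, podocytes wrap the capillaries, endothelial cells line them, mesangial cells hold the tuft together, and parietal epithelial cells line the capsule.

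The libraries held 18457791 to 42046542 UMIs (unique molecular identifiers, each counting 1 captured transcript). After filters on detected genes, mitochondrial share and doublets, 28000 of 33323 barcodes were kept in 23 clusters. Cluster names below are short for clusters carrying the markers of that type, and the classes were rebuilt here. Young replicate 2 stood apart, with a median of 1199.5 UMIs per kept cell against 2650 to 3686.5 in the other libraries. In it 62.0% of kept cells were left without a class, mostly cells carrying markers of several types, against 3.82% to 5.36% elsewhere. One mixed cluster, with podocyte markers highest, held 2676 of its cells. The called differences named below are given without it as well. Pairs of libraries shared 9 to 31 barcodes.

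Podocytes numbered 1773 and 591 in young libraries against 996 and 655 in aged libraries. Their 10 podocyte markers, Nphs1 among them, were all detected and summed to 26431 to 31156 CPM (counts per 1000000 UMIs of the summed class, without further scaling). Endothelial cells numbered 2352 and 1406 against 5772 and 4175, and mesangial cells 289 and 180 against 701 and 552. The endothelial class held the same clusters at each age, but the shares of some of them differed. Cluster 5 held 44.0% and 42.9% of young but 5.87% and 9.29% of aged endothelial cells, whereas cluster 1, with Sele and Il6 among its leading genes, held 7.19% and 7.40% against 37.3% and 26.3%. A further group, cluster 18 (33 and 56 young, 59 and 72 aged cells), had its highest marker level for parietal epithelial cells but counted Tagln, a smooth muscle marker, among its leading genes. It is called cluster 18 here. In it the parietal markers summed to 2247 and 2647 CPM in young and 3848 and 2958 in aged libraries, and the smooth muscle and renin markers to 2388 and 2815 against 4980 and 7475.

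Across cell classes each gene had its own distribution. The values in this and the next paragraph are such unscaled CPM, and they are compared between classes within 1 gene and never between genes. Lmna had its highest median in cluster 18 (1016, from 821 to 1224 over 4 libraries) and in endothelial cells (946, from 770 to 1192), whose ranges overlap. Podocytes (median 416) and mesangial cells (418) could not be told apart. Lmna was lowest in B cells (77.7) among classes with 2 or more libraries, and the podocyte range did not reach that of macrophages (155 to 172). For Lmnb1, T and NK cells had a median of 110 and monocytes and dendritic cells 84.9, against 3.32 in podocytes, the lowest median. The podocyte range (2.64 to 4.38) overlapped that of smooth muscle and renin cells (0 to 9.06). In neutrophils, present in 1 library with enough cells, Lmnb1 reached 1206 from 89 UMIs. Lbr also placed T and NK cells first (median 151) and podocytes last (7.85), and the podocyte range of 6.73 to 8.67 lay below that of tubule cells, the next class.

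Hmgb2 showed the same ends of its order, with T and NK cells at a median of 833 and podocytes at 36.4, and neither overlapped its neighbour. Hmgb3 was highest in cluster 18 (89.6, from 67.3 to 151) and then in podocytes (50.2, from 42.0 to 54.8). Hmgb1 was the most even, with medians from 203 in tubule cells to 484 in cluster 18, and 8 of its 9 neighbouring pairs of classes overlapped. For Lmnb2 8 of 9 pairs overlapped as well, and its medians ran from 2.56 in T and NK cells to 6.51 in smooth muscle and renin cells, on 671 UMIs in all barcodes. The overlapping pairs were 7 of 9 for Lmna, 8 for Lmnb1, 5 for Lbr, 6 for Hmgb2 and 7 for Hmgb3. These orders are descriptions and carry no test.

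**Figure D1:**
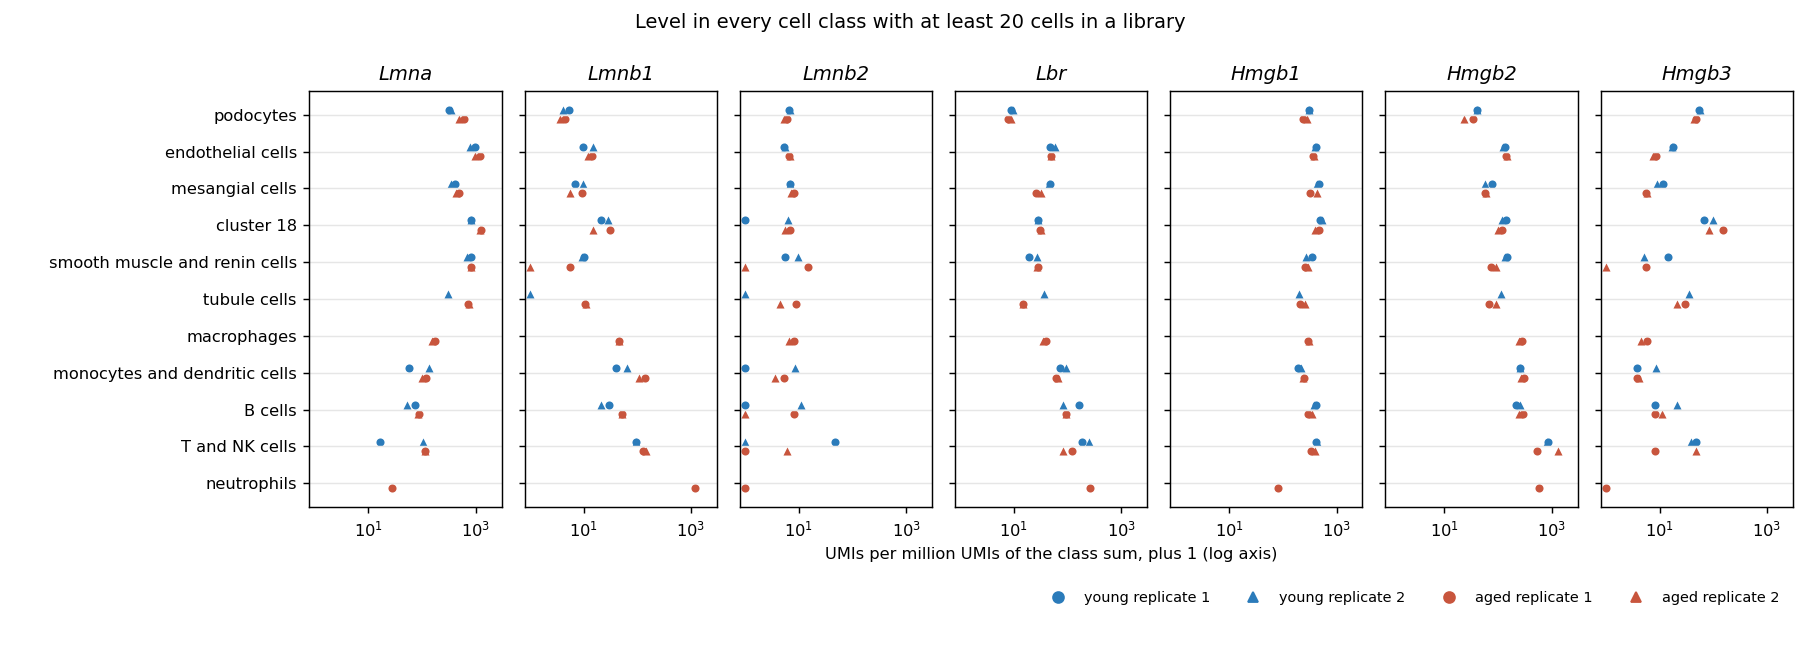
Level of each gene in every cell class with enough cells. The x axis gives unscaled CPM of the class sum plus 1, on a log axis. Each point is 1 library, and colour and shape give age and replicate. Lmna is high in endothelial cells and cluster 18 and low in blood cells. The highest medians of Lmnb1, Lbr and Hmgb2 are in classes of blood cells and the lowest in podocytes. For Lmnb1 the podocyte range overlaps that of the next class, smooth muscle and renin cells.

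Lmna rose with age in podocytes. It spans chr3:88480147-88509956 on the minus strand (GRCm38), overlaps no annotated gene, and its counts, given per gene, do not tell lamin A from lamin C. In podocytes Lmna measured 314 and 338 CPM when young and 609 and 499 when aged, here and below with library sizes scaled by TMM. The ages did not overlap, but with 2 libraries a group that was also so for 46.6% of all genes tested in podocytes, 48.9% in endothelial cells, 53.8% in mesangial cells and 48.4% in cluster 18. The log2 fold change, aged minus young, was 0.77 (SE 0.14), a 1.70-fold difference with an adjusted p of 0.000359 in edgeR's quasi-likelihood test. Of the 7 genes Lmna alone was called in podocytes (1 of 7), against 6.18% of all 10878 genes tested there, 4% called higher and 2.18% called lower. The call held in 10 of 12 alternatives and was lost without aged replicate 1 (log2 0.62, edgeR adjusted p = 0.161) and with mixed cells kept (log2 0.53, edgeR adjusted p = 0.403). With mixed cells kept, 6 of 11155 genes were called in all. Without young replicate 2 the log2 fold change was 0.81 (edgeR adjusted p = 1.33e-10).

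Aged values lay well above young ones in podocyte cluster 3 and only slightly above them in cluster 7. In cluster 3, led by Gas1, Nupr1 and Arhgap28, the unscaled level was 391 and 407 CPM in young and 709 and 568 in aged libraries. In cluster 7, led by Nphs1 and Cdkn1c, it was 125 and 127 against 144 and 137. These cluster 7 values rest on 288 and 83 UMIs in young and 149 and 137 in aged libraries. The gap is small beside counts of this size and was not tested. Cluster 7 held 40.0% and 29.9% of young and 29.2% and 31.8% of aged podocytes. The difference between the clusters was not tested. Other values moved with age in the same podocytes: smooth muscle and renin markers summed to 25.0 and 31.3 CPM in young and 54.2 and 47.9 in aged libraries, with Cnn1 at 0 in all 4. The endothelial markers did not separate by age (29.4 and 90.1 against 60.8 and 39.8). The part of these values in the Lmna difference was not tested.

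A RefSeq promoter window of Lmna is shown because Lmna is the gene called in podocytes, and those of Hmgb2 and Hmgb3 below serve as its contrast. Windows from 250 bases before to 50 bases after RefSeq start sites (GRCm38.p6) were taken for 6 of the 7 genes. Lmnb1 was left out of this search, so nothing is said of its promoter. Both strands were searched for CCAAT, the letters bound by NF-Y, and TTTGAA, the element of many cell cycle genes known as CHR. Of all 32851 promoters 37.4% held CCAAT and 17.9% held TTTGAA. The first of 2 Lmna windows, chr3:88503303-88503602 on the minus strand, held neither, so no base is capitalised, and the second held 1 CCAAT. Both windows lie inside the GENCODE span of Lmna, whose start on this strand is at 88509956. The bases before that start were not searched.
Lmna: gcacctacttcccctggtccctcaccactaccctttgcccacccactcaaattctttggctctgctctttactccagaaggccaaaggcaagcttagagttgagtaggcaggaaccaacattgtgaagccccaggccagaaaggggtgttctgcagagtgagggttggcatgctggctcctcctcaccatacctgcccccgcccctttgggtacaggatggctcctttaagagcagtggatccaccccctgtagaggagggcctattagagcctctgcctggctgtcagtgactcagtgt

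Lmna also stood higher in each of the other aged groups, without passing the test. In endothelial cells it measured 938 and 712 CPM in young and 1248 and 994 in aged libraries (log2 0.44, SE 0.18, edgeR adjusted p = 0.190). In mesangial cells it measured 393 and 339 against 521 and 443 (log2 0.39, SE 0.16, edgeR adjusted p = 0.158). In cluster 18 it measured 923 and 890 against 1363 and 1379 (log2 0.60, SE 0.17, edgeR adjusted p = 0.0720). No aged library overlapped a young one in these groups, which the shares given above show to be common among all genes. The calls depended on the setting: 2 of 12 alternatives called Lmna in endothelial cells, 1 of 12 in mesangial cells and 5 of 12 in cluster 18. Without young replicate 1 the endothelial value became 0.66 (edgeR adjusted p = 0.00381), and without young replicate 2 it became 0.26 (0.506). Without aged replicate 2 the mesangial value was 0.51 (edgeR adjusted p = 0.00524), and with mixed cells kept it was 0.13 (0.634). Without young replicate 2 it was 0.30 (edgeR adjusted p = 0.654), and cluster 18 gave 0.60 (0.153). By endothelial cluster the unscaled levels separated the ages in clusters 0, 4 and 10. They overlapped in cluster 5 (1008 and 808 CPM against 1097 and 1007), in cluster 1 (1044 and 798 against 1303 and 1038) and in cluster 12 (328 and 497 against 400 and 165). In cluster 18 the summed smooth muscle markers given above and the early response genes moved with age too, and their part was not tested.

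**Figure D2:**
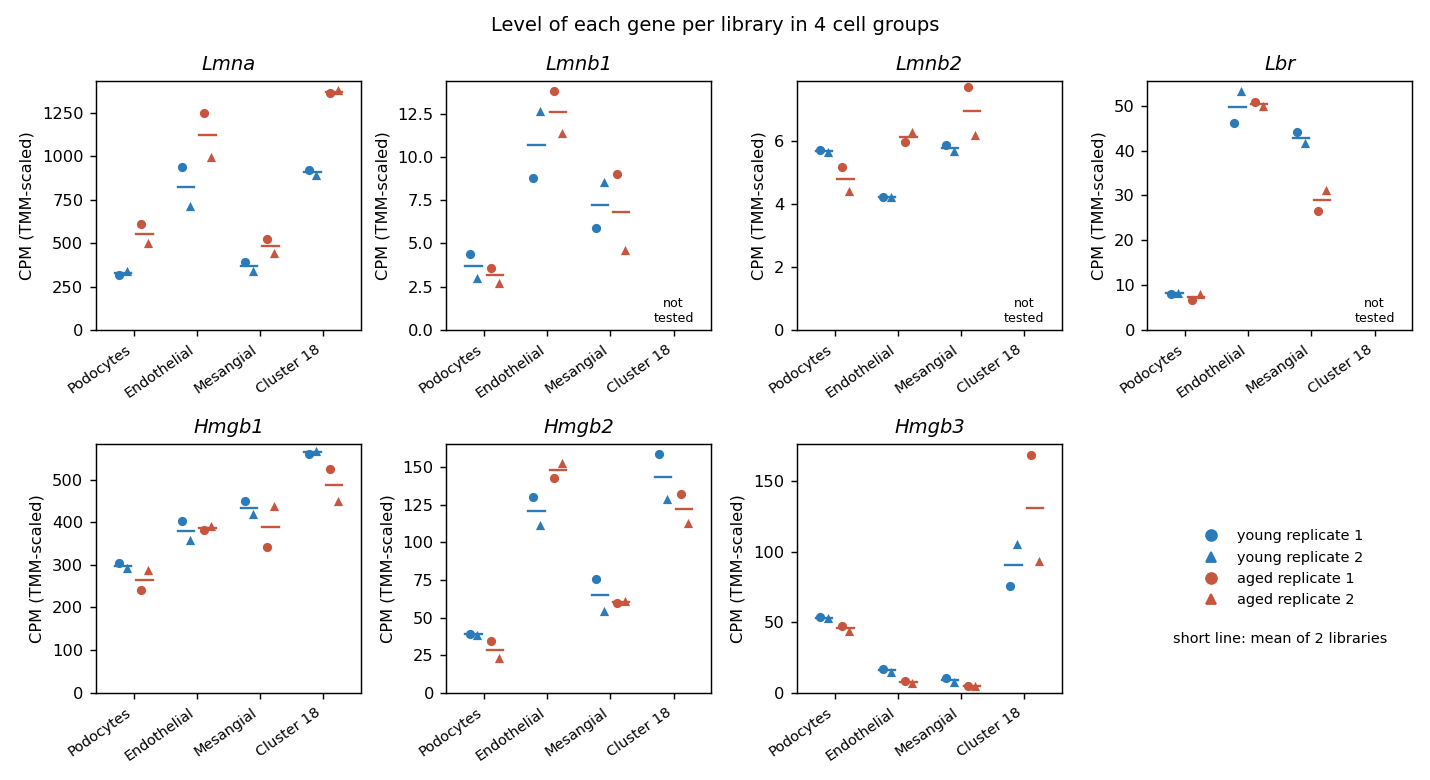
Level of the 7 genes in each library. The y axis is CPM scaled by TMM, starting at 0 and with its own scale for each gene, points are libraries and short lines are means of 2; both aged points lie above both young points for Lmna in all 4 groups, and below them for Hmgb3 in podocytes, endothelial cells and mesangial cells. Of all genes tested 46.6% to 53.8% separated the ages in this way.

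The B-type lamins were called in no group. Lmnb1 (chr18:56707813-56753424, plus strand) measured 4.41 and 2.98 CPM in young and 3.57 and 2.74 in aged podocytes (log2 -0.29, SE 0.40, edgeR adjusted p = 0.797). In endothelial cells it measured 8.76 and 12.7 against 13.8 and 11.4 (log2 0.26, SE 0.22, edgeR adjusted p = 0.596). In mesangial cells it measured 5.88 and 8.53 against 9.01 and 4.64 (log2 -0.05, SE 0.47, edgeR adjusted p = 0.964). Young and aged values overlapped in all 3 classes, and the sign turned without young replicate 1 in podocytes and in endothelial cells. The counts behind it were small, with 10 to 34 UMIs per podocyte sum, and a difference of the size of its SE was not detectable at this depth. In cluster 18 Lmnb1 had 3 and 5 UMIs in young and 10 and 9 in aged libraries and was not tested.

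Lmnb2 (chr10:80901203-80918245, minus strand) stood at 4.22 CPM in both young endothelial sums and at 5.97 and 6.29 in the aged ones. The groups did not overlap, as for 48.9% of all genes there, and the log2 fold change of 0.54 (SE 0.27) was not called (edgeR adjusted p = 0.302). In podocytes it went from 5.70 and 5.66 to 5.17 and 4.42 (log2 -0.24), and in mesangial cells from 5.88 and 5.69 to 7.73 and 6.19 (log2 0.25). In cluster 18 it had 0 and 1 UMIs in young and 2 and 3 in aged libraries. A count of 0 in 148643 UMIs allows a level of up to 20.2 CPM.

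Lbr (chr1:181815335-181843046, minus strand) was not called, with its lowest log2 fold change in mesangial cells. It measured 44.1 and 41.7 CPM in young and 26.6 and 31.3 in aged mesangial cells (log2 -0.57, SE 0.20, edgeR adjusted p = 0.107), with no overlap. Over 12 alternatives the value ran from -0.69 to -0.097. It was called in 1, without aged replicate 2 (log2 -0.69, edgeR adjusted p = 0.0157), and was nearest 0 with the shared-neighbour graph (log2 -0.097, edgeR adjusted p = 0.98). It was -0.60 without young replicate 2 (edgeR adjusted p = 0.308). In endothelial cells Lbr measured 46.2 and 53.2 against 50.9 and 49.9 (log2 0.03), and in podocytes 8.04 and 8.34 against 6.78 and 8.005 (log2 -0.15). In cluster 18 it had 4 and 5 UMIs against 10 and 20 and was not tested. Lbr overlaps Dnah14 on the other strand.

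The mesangial class as a whole gave 0 calls among the 7 genes by edgeR's quasi-likelihood test and 0 by DESeq2, against 6.86% of the 10738 genes tested by edgeR, 4.39% higher and 2.48% lower. At an unadjusted p under 0.05 edgeR placed 2442 of those genes, and Lbr, Lmna and Hmgb3 had unadjusted p-values of 0.0134, 0.0271 and 0.037. Without aged replicate 2 it called 2, Lmna and Lbr. Cluster 18 gave 0 calls among the 4 genes tested, by edgeR and by DESeq2, which gave Hmgb3 no adjusted p there, against 2.92% of 4652 genes, 1.74% higher and 1.18% lower; 793 of those genes had an unadjusted p under 0.05. The ages did not overlap for 6 of the 7 genes in podocytes, 4 in endothelial cells, 4 in mesangial cells and 2 of the 4 tested in cluster 18, beside the shares of all genes given above. The median log2 fold change was -0.22 in podocytes, 0.26 in endothelial cells and -0.13 in mesangial cells, where all 7 were tested. The medians of all genes tested there lay between -0.012 and 0.0022.

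Hmgb3 fell with age in endothelial cells. It lies at chrX:71555918-71560676 on the plus strand. Endothelial sums held 16.5 and 14.997 CPM when young and 8.07 and 6.83 when aged. Every aged value was lower than every young value. This is a log2 fold change of -1.09 (SE 0.20), with an adjusted p of 0.00251 by edgeR. Hmgb3 was the 1 gene of 7 called in endothelial cells, where 5.9% of 13073 genes were called, 3.87% higher and 2.03% lower. The call held in all 12 alternatives run, with values from -1.21 to -0.97, and without young replicate 2 it was -1.15 (edgeR adjusted p = 0.000243). In mesangial cells Hmgb3 measured 10.6 and 7.59 against 4.94 and 4.99 (log2 -0.91, SE 0.39, edgeR adjusted p = 0.184), also without overlap, and without young replicate 1 the value was -0.60 (0.685).

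Within endothelial cells, the unscaled Hmgb3 level of both young libraries lay above that of both aged ones in clusters 0, 1, 4, 5 and 10. In cluster 5, the largest young cluster, it was 15.4 and 12.2 against 6.73 and 3.29. In cluster 0 it was 16.8 and 20.5 against 7.06 and 6.53. In cluster 12 the ages overlapped, on at most 5 UMIs a library. Counts were as low in parts of other clusters: 4 and 4 UMIs in young cluster 1, and 5 and 4 in aged cluster 5. Young replicate 2 gave 5 in cluster 4 and aged replicate 2 gave 4 in cluster 10. Cluster 0 held 23 to 36 UMIs a library. Podocyte markers summed to 1029 and 1433 CPM in young and 950 and 916 in aged endothelial sums, with all 10 detected in every library. The same markers summed to at least 26431 CPM in podocytes, whose Hmgb3 level is higher. Their part in the Hmgb3 difference was not tested.

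**Figure D3:**
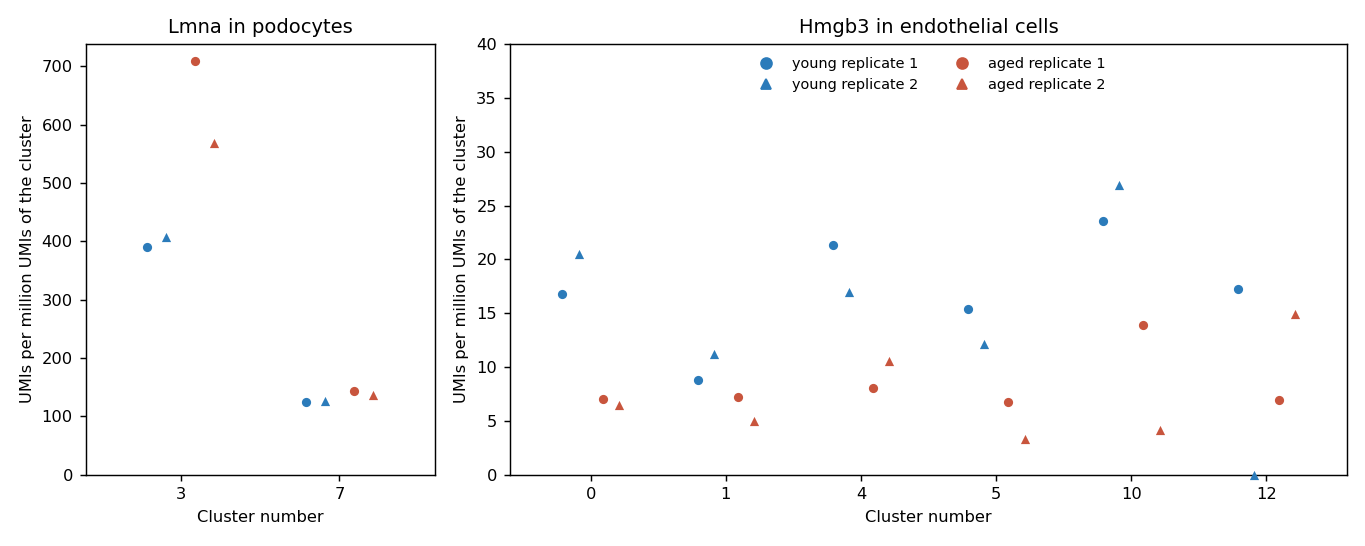
Lmna in the podocyte clusters and Hmgb3 in the endothelial clusters, as unscaled CPM of the cluster in each library, on axes that start at 0. The Lmna values separate by a wide gap in cluster 3 and a narrow one in cluster 7, where they rest on 83 to 288 UMIs a library. Young Hmgb3 points lie above aged ones in each endothelial cluster except cluster 12. In some libraries of clusters 1, 4, 5 and 10 they rest on 5 or fewer UMIs.

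Podocytes and cluster 18 gave other Hmgb3 values. Podocytes held 53.7 and 52.7 CPM in young and 47.4 and 43.6 in aged libraries (log2 -0.22, SE 0.14, edgeR adjusted p = 0.462), without overlap. Cluster 18 held 75.6 and 105 against 168 and 93.4 (log2 0.43, SE 0.37, edgeR adjusted p = 0.595), with the high value from aged replicate 1. The endothelial change differed from the podocyte change by -0.84 (SE 0.20, edgeR adjusted p = 0.00932). The cluster 18 change differed from the endothelial change by 1.67 (SE 0.41, edgeR adjusted p = 0.00905).

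Hmgb2 (chr8:57511907-57515999, plus strand) had age differences of opposite sign in podocytes and endothelial cells, and neither alone passed the test. Podocytes held 39.1 and 38.4 CPM in young and 34.1 and 23.0 in aged libraries (log2 -0.44, SE 0.17, edgeR adjusted p = 0.151). Endothelial cells held 130 and 112 against 143 and 153 (log2 0.29, SE 0.14, edgeR adjusted p = 0.280). The ages did not overlap in either class, as for 46.6% of all podocyte and 48.9% of all endothelial genes. The endothelial change minus the podocyte change was 0.72 (SE 0.17), called with an edgeR adjusted p of 0.0112. Over 12 alternatives the podocyte log2 fold change ran from -0.76 to -0.19 and was called in 1, without young replicate 2 (-0.45, edgeR adjusted p = 0.0261). It was -0.76 without aged replicate 1 (edgeR adjusted p = 0.0818), -0.19 without aged replicate 2 (0.957) and -0.75 with mixed cells kept (0.38). The endothelial value was 0.18 without young replicate 2 (edgeR adjusted p = 0.674). Mesangial cells held 75.8 and 54.1 against 59.9 and 60.9 (log2 -0.13), and cluster 18 held 159 and 129 against 132 and 113 (log2 -0.24), both with overlap.

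The Hmgb2 and Hmgb3 windows are shown because these genes gave the 3 differences between classes, and both carry the searched letters, in capitals, on either strand. The Hmgb2 window, chr8:57511593-57511892 on the plus strand, held 4 matches to CCAAT and 2 to TTTGAA. The Hmgb3 window, chrX:71555667-71555966 on the plus strand, held 3 and 1. Lbr held 2 and 1, the first Hmgb1 window 3 and 0, and Lmnb2 0 and 0. A match describes the letters and says nothing of binding. The Hmgb2 window ends before the GENCODE start of the gene (57511907). Unlike the other windows, its end was found in no annotated transcript of its gene.
Hmgb2: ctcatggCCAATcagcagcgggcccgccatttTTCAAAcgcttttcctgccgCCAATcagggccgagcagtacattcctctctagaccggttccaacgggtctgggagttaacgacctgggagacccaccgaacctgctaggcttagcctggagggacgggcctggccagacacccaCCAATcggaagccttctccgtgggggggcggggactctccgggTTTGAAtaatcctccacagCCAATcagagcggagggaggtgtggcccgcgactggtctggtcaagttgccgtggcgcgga
Hmgb3: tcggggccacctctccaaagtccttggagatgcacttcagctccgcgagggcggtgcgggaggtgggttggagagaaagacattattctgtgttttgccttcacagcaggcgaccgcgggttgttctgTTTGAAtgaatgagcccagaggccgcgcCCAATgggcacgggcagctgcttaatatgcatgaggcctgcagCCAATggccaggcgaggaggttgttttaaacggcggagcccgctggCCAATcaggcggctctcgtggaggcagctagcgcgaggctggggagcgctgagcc

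Differences in age change were tested in 41 pairs of gene and class pair, and 3 were called, those for Hmgb2 and Hmgb3 given above. Of all genes, 6.47% were called for endothelial cells against podocytes, 5.26% for mesangial cells against podocytes, 2.31% for cluster 18 against podocytes, 2.95% for mesangial against endothelial cells, 1.4% for cluster 18 against endothelial cells and 1.32% for cluster 18 against mesangial cells. The Hmgb3 difference between endothelial cells and podocytes was called in 5 of 6 alternatives and not without young replicate 1 (-0.79, edgeR adjusted p = 0.162). Without young replicate 2 it was -0.89 (edgeR adjusted p = 0.0444), and the Hmgb3 difference of cluster 18 was 2.04 (edgeR adjusted p = 0.0319). The Hmgb2 difference was lost without young replicate 1 (0.83), young replicate 2 (0.65) or aged replicate 2 (0.44) and with DESeq2 (0.75). The Hmgb3 difference of cluster 18 was lost without young replicate 1 (1.43) or aged replicate 1 (1.35) and with DESeq2 (1.62). For Lmna the endothelial change minus the podocyte change was -0.31 (SE 0.12, edgeR adjusted p = 0.157), and no pair of classes was called. That Lmna difference was called with no filter (-0.33, edgeR adjusted p = 0.0444) and without young replicate 2 (-0.54, edgeR adjusted p = 0.0197). Without aged replicate 2 the differences of Hmgb1 between endothelial cells and podocytes (0.35) and of Lbr between mesangial and endothelial cells (-0.75) were called as well.

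**Figure D4:**
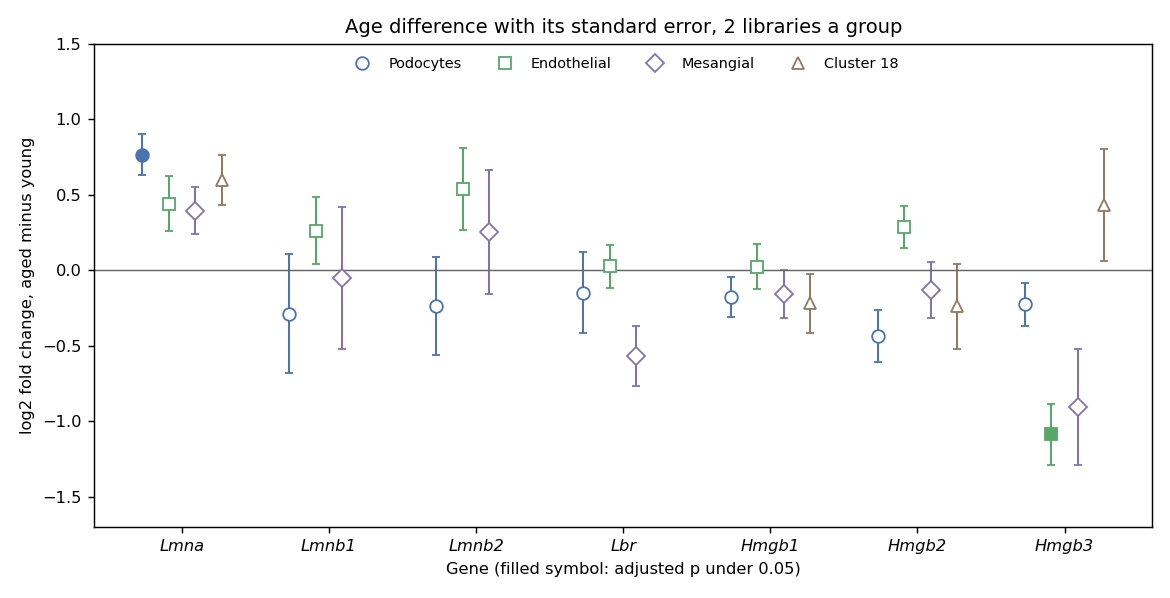
log2 fold change, aged minus young, of each gene in each group with its standard error, 2 libraries a group. Filled symbols passed the adjusted p threshold of 0.05: Lmna in podocytes at 0.77 and Hmgb3 in endothelial cells at -1.09.

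Hmgb1 was called in no group. It spans chr5:149046702-149184489 on the minus strand and overlaps Uspl1 on the other strand, several RNA genes and a pseudogene. Because 13 features named as Hmgb1 copies can share reads with it, its level is uncertain, although those copies drew 713 UMIs against 41562 for Hmgb1. Podocytes held 304 and 293 CPM in young and 241 and 288 in aged libraries (log2 -0.18), and endothelial cells 402 and 359 against 382 and 392 (log2 0.02). Mesangial cells held 451 and 418 against 342 and 438 (log2 -0.16), and cluster 18 held 560 and 568 against 525 and 449 (log2 -0.22). The SE was 0.13 to 0.19 and the lowest edgeR adjusted p was 0.565. These values describe transcripts and cannot show where the protein lies.

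Receptors, adaptors and binding partners of HMGB1 gave 28 tests in the 4 groups, of which 6 were called higher and 1 lower. Thbd was among the higher calls in podocytes, endothelial cells and mesangial cells alike. The list does not tell genes that pass on HMGB1 signals from genes that limit them. The list holds 12 genes. In podocytes 5 of the 12 passed the count filter, of which 3 rose and none fell. Of all genes tested there 4% were called higher and 2.18% lower. The list's median was 0.57 beside 0.0022 for all genes, and like the count it is a description only. Thbd is among the 3 genes that rose and is in that median. It entered the tests mainly through the aged libraries, where it is high, so it adds no support to the count or the median. Thbd, which encodes thrombomodulin, a membrane protein that binds thrombin and HMGB1, went from 1.04 and 1.79 CPM to 21.4 and 16.2 (log2 3.87, SE 0.33, edgeR adjusted p = 2.57e-09). With mixed cells kept it read -0.41 and was not called. The summed endothelial markers, whose cells hold Thbd at 266 to 424 CPM, did not separate by age in podocytes, as given above. The part of these markers in the podocyte Thbd difference was not tested. Cxcl12, a chemokine that binds HMGB1, rose by 0.57 (edgeR adjusted p = 0.00769), and Myd88, the adaptor of Toll-like receptors, by 0.57 (edgeR adjusted p = 0.0258). Cxcl12 and Myd88 were not called without aged replicate 1 (log2 0.69 and 0.66) or without aged replicate 2 (log2 0.45 and 0.48). Without young replicate 2 the podocyte values were 4.16 for Thbd, 0.57 for Cxcl12 and 0.57 for Myd88, all called.

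Of the same list, 1 of 10 genes was called in endothelial cells: Thbd rose from 272 and 266 to 397 and 424 CPM (log2 0.61, edgeR adjusted p = 0.0167), a call lost without aged replicate 1 (log2 0.66) or 2 (log2 0.56) and kept without young replicate 2 (log2 0.59). Of all endothelial genes tested 3.87% were called higher. In mesangial cells 2 of 8 rose and 1 fell, beside 4.39% of all genes called higher and 2.48% lower. Thbd (log2 1.59, edgeR adjusted p = 0.0460) and Il1r1, a receptor of interleukin-1, (log2 1.00, edgeR adjusted p = 0.0218) rose, and Sdc1, a cell surface proteoglycan, fell (log2 -0.91, edgeR adjusted p = 0.0139). None of 5 was called in cluster 18, beside 2.92% of all genes. All 3 mesangial calls were lost without young replicate 1 (Thbd 0.94, Il1r1 0.81, Sdc1 -0.97) and without young replicate 2 (2.30, 1.18 and -0.84), and with mixed cells kept the mesangial Thbd value was -1.21 (edgeR adjusted p = 0.0379). In the same mesangial sums all 10 endothelial markers were detected and summed to 2223 and 2084 CPM in young and 2818 and 2928 in aged libraries, while the mesangial markers summed to 13227 and 13056 against 11196 and 10443. Endothelial cells hold Thbd at the levels given above, and the part of these markers in the mesangial differences was not tested.

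Proteins of the inner nuclear membrane and partners of the lamina gave 47 tests, with 2 called higher and 2 lower. Of all genes, 1.74% to 4.39% were called higher and 1.18% to 2.48% lower, by group. These shares also stand beside the counts of the lists below. Tmpo, which encodes the LAP2 proteins that bind lamins, fell in podocytes from 44.5 and 42.6 CPM to 28.5 and 28.9 (log2 -0.61, SE 0.15, edgeR adjusted p = 0.0124). In mesangial cells it fell from 102 and 108 to 58.0 and 73.6 (log2 -0.67, edgeR adjusted p = 0.0380). Ppp1cc, a phosphatase subunit, rose in endothelial cells (log2 0.56, edgeR adjusted p = 0.0385) and in mesangial cells (log2 0.83, edgeR adjusted p = 0.0286). The list's median was -0.11 in podocytes, 0.04 in endothelial cells and -0.10 in mesangial cells. The podocyte Tmpo call was lost without aged replicate 1 (-0.60) or 2 (-0.61), and the endothelial Ppp1cc call without aged replicate 1 (0.33). The mesangial calls of Tmpo and Ppp1cc were lost without young replicate 1 (-0.71 and 0.69) or 2 (-0.62 and 0.95). Without young replicate 2 the podocyte Tmpo value was -0.64 (edgeR adjusted p = 0.000275) and the endothelial Ppp1cc value 0.52 (0.0388).

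The LINC complex, which joins the lamina to the cytoskeleton, gave 15 tests and 1 call, beside 2.92% to 6.86% of all genes called by group. Syne1, which encodes nesprin-1, fell in podocytes from 185 and 217 CPM to 132 and 138 (log2 -0.57, SE 0.13, edgeR adjusted p = 0.00651), but was not called without aged replicate 1 (-0.53) or 2 (-0.60), and was -0.46 without young replicate 2 (edgeR adjusted p = 0.000893). The lamin processing enzymes gave 17 tests and 0 calls by edgeR. Sterol synthesis genes, the enzymatic side of Lbr, gave 59 tests with 0 higher and 2 lower: Hmgcs1 in endothelial cells (log2 -0.69, edgeR adjusted p = 0.00737) and Idi1 in mesangial cells (log2 -1.14, edgeR adjusted p = 0.0418). These are 1 of 18 tested in endothelial cells and 1 of 17 in mesangial cells, beside 2.03% and 2.48% of all genes called lower. The Hmgcs1 call was lost without aged replicate 2 (-0.61) and held without young replicate 2 (-0.52, edgeR adjusted p = 0.0359), and the Idi1 call without young replicate 1 (-1.30) or 2 (-1.003). The sterol list's median was -0.39 in endothelial cells, -0.35 in mesangial cells, -0.12 in cluster 18 and -0.09 in podocytes. The other HMG box, HMGN and HMGA genes gave 37 tests and 0 calls by edgeR, with medians from -0.14 in podocytes to 0.03 in cluster 18.

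Early response genes induced by tissue dissociation were measured beside these results. In podocytes 5 of 16 were called higher and 1 lower, with Dnajb1 at 1.40 and Dusp1 at -0.83 on the log2 scale (Dusp1 was not called without aged replicate 1, at -0.75), while their summed level was 44125 and 46236 CPM in young and 43728 and 48412 in aged libraries. In endothelial cells 2 of 16 were higher, Dusp1 (log2 1.16) and Ier3 (log2 0.90), the latter not called without aged replicate 1 (0.85). All 4 were called without young replicate 2, with Dnajb1 at 1.35 and Dusp1 at -0.74 in podocytes and Dusp1 at 1.03 and Ier3 at 0.76 in endothelial cells. None rose and 5 fell in mesangial cells, and 6 fell in cluster 18, of 16 tested in each. Of all genes 4% were called higher in podocytes and 3.87% in endothelial cells. Those called lower were 2.18% in podocytes, 2.48% in mesangial cells and 1.18% in cluster 18. The mesangial calls of Egr1, Btg2, Atf3 and Jun were lost without young replicate 2 (-1.01, -0.94, -0.75 and -0.77), and those of Atf3 and Jun without young replicate 1 (-0.96 and -1.09). The summed level separated the ages in the other 3 groups: upward in endothelial cells (26699 and 26869 CPM against 28289 and 31180), downward in mesangial cells (40201 and 43824 against 30499 and 37277) and downward in cluster 18 (22712 and 22815 against 10630 and 16357). The part of these genes in the lamina and HMGB differences was not tested.

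Cells with at least 2 UMIs over 16 proliferation genes are called proliferating here. In endothelial cells and macrophages they held a large share of B-type lamin and Hmgb2 transcripts. In endothelial cells they made up 0.850% and 0.996% of young cells and 1.23% and 1.72% of aged cells, with 1.54% to 2.81% of all UMIs. They held 14.9% and 11.3% of Hmgb2 UMIs in young libraries and 15.5% and 23.8% in aged ones. The 95% Wilson intervals were 12.6% to 17.6%, 8.80% to 14.5%, 14.01% to 17.2% and 22.1% to 25.6%, and they cover counting error only. For Lmnb1 the shares were 22.2%, 35.2%, 15.7% and 25.6%, on 54 to 197 UMIs, with intervals from 13.2% to 34.9%, 23.8% to 48.5%, 11.3% to 21.5% and 19.6% to 32.7%. For Lmna they were 1.24% to 3.17%, near the share of all UMIs. These cells held more UMIs each than the rest, and the part of depth was not tested.

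The macrophages, nearly all from the aged libraries (527 and 481 cells against 3 and 12), had a larger proliferating share of 11.95% and 15.2%. Those cells carried 17.7% and 23.1% of all UMIs but 59.0% and 64.3% of Hmgb2 UMIs (Wilson intervals 55.8% to 62.2% and 61.5% to 67.1%). For Lmnb1 they carried 55.9% and 69.7% (47.8% to 63.8% and 63.3% to 75.4%). Their shares were also above that of all UMIs for Lbr (42.1% and 45.3%) and Hmgb1 (38.5% and 41.7%). The same was so for Hmgb3 (68.75% and 52.9%), on 16 and 17 UMIs. With proliferating cells left out, the endothelial log2 fold change of Hmgb2 was 0.19 and that of Hmgb3 was -1.12 (edgeR adjusted p = 0.00366). Of the proliferation genes themselves 26 tests gave 1 call, Tyms in endothelial cells (log2 0.79, edgeR adjusted p = 0.0111), which was lost without young replicate 2 (0.60).

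**Figure D5:**
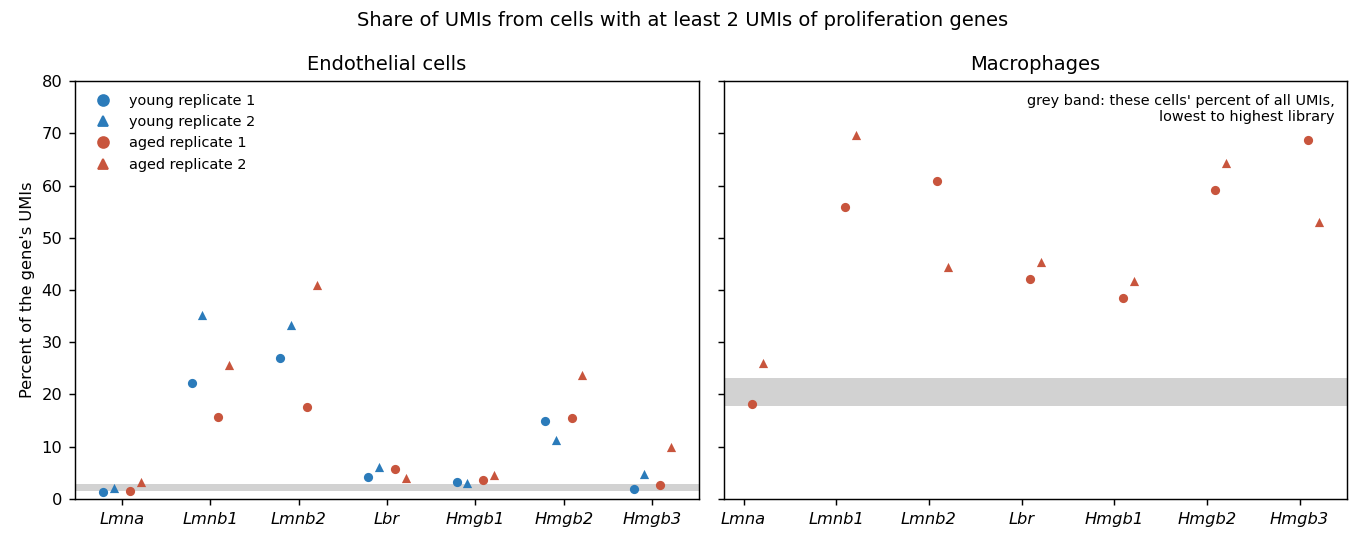
Share of each gene's UMIs that came from cells with at least 2 UMIs of proliferation genes, in percent, by library, in endothelial cells and in the aged macrophages. The grey band is the same cells' share of all UMIs. Lmnb1, Lmnb2, Hmgb2, Lbr and Hmgb1 lie above it in every library shown, Lbr and Hmgb1 by less in endothelial cells. Lmna lies near it.

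Cdkn2a, which encodes the cell cycle inhibitor p16 used as a senescence marker, had a UMI in 85 and 92 aged mesangial cells and in 1 cell of each young library. Aged mesangial cells with it held Lmna at 463 and 434 unscaled CPM, against 498 and 434 in cells without it. Lmnb1 stood at 11.2 and 5.64 with Cdkn2a and at 7.72 and 4.16 without, on 12, 9, 30 and 18 UMIs. Hmgb2 stood at 61.7 and 59.5 against 54.8 and 59.8. Lmnb1 was higher in the Cdkn2a cells of both libraries and Hmgb2 in those of aged replicate 1, with no test. The cells with a Cdkn2a UMI were deeper, with median UMIs of 8595 against 4014 and 15414 against 5795.5, and the part of depth was not tested.

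Likeness to other genes was measured as Pearson's r of log2(CPM + 1) over 38 sums of a library and class, from 11 classes, among 6430 genes, and it is a description because the sums share libraries and depth. Lmna was closest to Zhx3 (r = 0.92), Npdc1 and Epha2 (both 0.91). Lmnb1 was closest to Dennd4a (0.84), Samsn1 (0.84) and Bcl2l11 (0.83), and Lbr to Bcl2l11 (0.91), Neurl3 (0.89) and Sp100 (0.85). Hmgb2 was closest to Rps9 (0.87), Tpt1 and Bcl2l11 (both 0.86), so Bcl2l11 stood among the nearest genes of all 3. Hmgb1 was closest to Ctcf, Acin1 and Ptma (0.82 each), Hmgb3 to Rad21 (0.83), Lrba (0.83) and Fkbp3 (0.80), and Lmnb2 to Ube2n (0.63), Ammecr1l (0.60) and Galnt1 (0.59).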

How the data were processed

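Single cells of 2 young and 2 aged glomerular samples were prepared with 10x Genomics 3' chemistry. The authors deposited raw UMI counts per gene and barcode (GRCm38). Cell Ranger 6.0.1 and Partek are named in the submitters' processing notes, while the labels' protocol names Cell Ranger 3.1.0. Replicates differed by more than sampling noise (chi-square over degrees of freedom 11.6 for the young and 34.1 for the aged pair).

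Barcodes with at least 500 genes and at most 20% mitochondrial UMIs were kept, and 6.28% were removed as doublets by a simulated-neighbour score. Cells were clustered (2000 variable genes, 30 components, 15 neighbours, Leiden resolution 1) and named by marker lists. Marker level thresholds were set after seeing the data. UMIs were summed per library and class and tested with edgeR 4.0.16 (TMM, filterByExpr, quasi-likelihood test, Benjamini-Hochberg over all genes tested, called under an adjusted p of 0.05), with a library block in the tests between classes. Alternatives were DESeq2 1.42.0, no filter, each library left out, a replicate block, doublets kept, mixed cells kept, resolution 2, no proliferating cells and, chosen after seeing the data, a shared-neighbour graph. The scripts were tested on simulated data. Gene positions come from GENCODE (99.6% of gene IDs matched) and promoters from RefSeq.

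All 7 genes are named wherever they pass the filter. Of the companion lists up to 4 called genes per list and class were named, by smallest p, and the 3 most correlated genes per member. The members and lists were chosen with earlier results of these data known.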

Additional observations from a re-analysis of the deposited data

Results flagged for a closer look

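The tests of a difference in age change between cell groups picked out 3 results. The age change of Hmgb2 in endothelial cells minus that in podocytes was 0.72 on the log2 scale, with the endothelial value positive and the podocyte value negative. The age change of Hmgb3 in endothelial cells minus that in podocytes was -0.84, both values being negative. The age change of Hmgb3 in cluster 18, whose highest marker level is that of parietal epithelial cells, minus that in endothelial cells was 1.67. Groups of 2 libraries are too small to look for a single outlying library within a group.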

How the results depend on the processing

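Of 300 values (25 combinations of gene and class under 12 alternatives), 277 kept their direction and their side of the threshold, 10 became called, 2 lost their call and 11 changed sign. Leaving out 1 library turned Lmnb1 in podocytes (-0.49 to 0.10) and endothelial cells (-0.00298 to 0.52), Lbr (-0.073 to 0.12) and Hmgb1 (-0.053 to 0.11) in endothelial cells, and Lmnb1 (-0.57 to 0.38), Hmgb1 (-0.34 to 0.013) and Hmgb2 (-0.32 to 0.16) in mesangial cells, where Lmnb1 read 0.20 without young replicate 2. Mesangial Lmnb1 read 0.0015 without the filter and 0.98 with the shared-neighbour graph, under which mesangial Lmnb2 read -0.56. Among companion genes Thbd read -0.41 in podocytes and -1.21 in mesangial cells with mixed cells kept, and Atf3 0.35 in mesangial cells with the shared-neighbour graph. The causes were not tested.

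Leaving out 1 library moved the number of the 7 genes called from 1 to between 0 and 2 in podocytes, from 1 to between 1 and 2 in endothelial cells, from 0 to between 0 and 2 in mesangial cells, and left 0 in cluster 18. It moved the 3 called class differences to between 0 and 4, and DESeq2 gave 1. With mixed cells kept podocytes gave 0. In cluster 18, Lmna was called with no filter, with the replicate block, with mixed cells kept, at resolution 2 and with the shared-neighbour graph, 1 gene each time. The replicate block also gave 2 in endothelial cells, adding Lmna at 0.45 (edgeR adjusted p = 0.0332). Same-numbered libraries deviated together by a correlation of -0.01 to 0.09, and no label ties the numbers to a source. Genes called overall went from 672 to 265 in podocytes, 771 to 483 in endothelial cells, 737 to 405 in mesangial cells and 136 to 48 in cluster 18 with DESeq2. They went to 6 in podocytes with mixed cells kept and to 24 in mesangial cells with the shared-neighbour graph. The block gave 1164, 1334 and 286 in endothelial cells, mesangial cells and cluster 18, and no filter gave 441, 1327 and 270. Leaving out 1 library gave 315 to 1266 in podocytes, 524 to 1052 in endothelial cells, 122 to 1859 in mesangial cells and 177 to 223 in cluster 18. Low counts limit Lmnb1 and Lmnb2 in all groups, and small cell numbers limit cluster 18.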
